A study of Mus musculus with 33 samples.

Results

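The 8 genes described here are receptor chains of the interferons, STAT transcription factors and a feedback inhibitor of their signal: Ifnar1, Ifnar2, Ifngr1, Ifngr2, Stat2, Stat5b, Stat6 and Socs1. They were taken by name from the 773 genes of an nCounter panel, an assay that counts single RNA molecules by fluorescent barcodes hybridized to them, and all 8 were measured in all 33 right-lung RNA samples. All groups shared the genotype CCSP-rtTAtg/(teto)7Sftpb/Sftpb-/- on FVB/N: the mice lack their own surfactant protein B, and a transgene switched on by doxycycline through CCSP-rtTA supplies it. At day 97 there were 6 groups of 4 lungs, 2 from females and 2 from males in each. The repeat groups received AAV-hSPBTLR9i or AAV-hSPB, adeno-associated virus vectors named for human surfactant protein B, through the trachea at day 0 and again at day 90. The single-dose groups received AAV-hSPBTLR9i or AAV-hSPB at day 0 only. All 4 of these groups came off doxycycline at day 7. The off-doxycycline group had no vector and lost doxycycline at day 94, 3 days before harvest, and the on-doxycycline group had no vector and kept it. A further 9 lungs were taken 3 h after a first dose of AAV-hSPBTLR9i, AAV-hSPB or 1x PBS, 3 lungs each (2 female, 1 male). What the TLR9i element is, and the age of the mice, are not given in the sources used here.

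Interferons bind paired receptor chains on the cell surface. The type I interferons, which infected cells and sentinel cells release early, use IFNAR1 and IFNAR2, and interferon gamma, made mainly by T cells and NK cells, uses IFNGR1 and IFNGR2. Kinases attached to these chains phosphorylate STAT proteins, which then enter the nucleus: STAT2 joins other factors to form the complex that binds the interferon-stimulated response element (ISRE) of antiviral genes. STAT6 carries the signals of interleukin 4 and interleukin 13, STAT5B those of interleukin 2 family cytokines and growth hormone, and SOCS1 blocks the receptor kinases as a feedback inhibitor. In the lung these receptors are carried by epithelial, endothelial and immune cells alike.

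The values are log2 normalised counts as the authors deposited them. Total recovered counts ran from 597788 to 1131011 per lung at day 97 and from 1156612 to 1710291 at 3 h. Of the 8 genes, 7 were above the background of the control probes in 24 of 24 lungs at day 97, and Socs1 was above it in 21. The lung genes Ager and Cxcl15 lay between 13.8 and 15.5 log2 units in every day 97 lung. Replicate 1 of the on-doxycycline group stood apart, with the summed normalised counts of the 2 measured liver markers at 45771, against 346 to 949 in the other 23 lungs. Replicate 2 of the repeat AAV-hSPB group had the lowest sum of the 2 measured endothelial markers, 4214, against 6712 to 12107 in the other 23 lungs. Whether every sample is a different mouse is not stated in the labels, and the p-values therefore reflect variation among samples, part of which may be technical. In bulk RNA, fewer cells of a type and less RNA per cell cannot be told apart.

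On the deposited scale Stat2 had the smallest adjusted p of the 8 members over the 6 groups of day 97. On that scale Stat2 was higher in repeat-dose lungs than in on-doxycycline lungs, and higher after repeat than after single AAV-hSPB. Of these calls, only that of repeat AAV-hSPB against on doxycycline held when the lungs were scaled otherwise and whichever lung was left out. Stat2 levels were 9.00, 8.99, 8.83 and 8.82 log2 units after repeat AAV-hSPBTLR9i, and 9.26, 9.32, 8.85 and 9.15 after repeat AAV-hSPB. With a single dose Stat2 stood at 8.70, 8.83, 8.74 and 8.73 after AAV-hSPBTLR9i, and at 8.60, 8.90, 8.87 and 8.42 after AAV-hSPB. Off doxycycline Stat2 stood at 8.47, 8.43, 8.60 and 8.62, and on doxycycline at 8.67, 8.29, 8.51 and 8.48. All 4 lungs of each repeat group lay above all 4 on-doxycycline lungs, whose highest value was 8.67. The means were 8.91 ± 0.10 after repeat AAV-hSPBTLR9i, 9.14 ± 0.21 after repeat AAV-hSPB and 8.49 ± 0.15 on doxycycline (SD, n = 4 each).

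Against the on-doxycycline group, Stat2 rose by 0.66 log2 units, or 1.58-fold, after repeat AAV-hSPB (95% interval 0.42 to 0.90, limma adjusted p = 0.000376). After repeat AAV-hSPBTLR9i the difference was 0.42 log2 units, or 1.34-fold (0.18 to 0.66, adjusted p = 0.0203). The call after repeat AAV-hSPBTLR9i did not hold when on-doxycycline replicate 2 (0.35, adjusted p = 0.0809) or replicate 4 (0.42, 0.0542) was left out, nor without replicate 1 (0.39, 0.0575) or 2 (0.39, 0.0752) of the repeat AAV-hSPBTLR9i group. Leaving out both lungs that stand apart, the on-doxycycline lung high in liver markers and the repeat AAV-hSPB lung low in endothelial markers, Stat2 differed from the on-doxycycline group by 0.48 after repeat AAV-hSPBTLR9i (adjusted p = 0.0113) and by 0.66 after repeat AAV-hSPB (adjusted p = 0.00133). Repeat AAV-hSPB also exceeded single AAV-hSPB, with means of 9.14 and 8.70 and a difference of 0.44 (0.20 to 0.68, adjusted p = 0.0247). The ranges of these groups overlapped, since the lowest repeat lung, at 8.85, lay below the 2 highest single-dose lungs. That call was lost without single-dose replicate 1 (0.41, adjusted p = 0.0643) or 4 (0.35, 0.102), and without repeat-dose replicate 1 (0.41, 0.0644), 2 (0.39, 0.0586) or 4 (0.44, 0.0552). The last dose preceded harvest by 7 days in the repeat-dose groups and by 97 days in the single-dose groups, so the number of doses and the time since the last cannot be told apart. All vector groups came off doxycycline at day 7, and the on-doxycycline group kept it. In every comparison of a vector group with the on-doxycycline group, vector and loss of doxycycline therefore cannot be told apart. The off-doxycycline group had lost it only 3 days before harvest, and no vector group was tested against it.

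The stretch before the start of Stat2 is shown because it holds the letters to which the STAT2 complex is known to bind, and that of Socs1 because it holds them as well. In the 250 bases before the RefSeq start (GRCm38.p6), the ISRE core was searched on both strands as GAAA, any 2 bases and GAAA again, and was present in 2.98% of 32851 promoters. Capitals mark the matches.
Stat2, chr10:128270256-128270305, plus strand: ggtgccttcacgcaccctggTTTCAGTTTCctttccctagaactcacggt
Socs1, chr16:10785584-10785639, minus strand: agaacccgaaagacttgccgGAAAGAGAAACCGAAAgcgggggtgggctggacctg
The match of Stat2 begins 222 bases before the start, is 10 bases long and reads the core on the opposite strand. Socs1 holds 2 matches that overlap each other, in the 16 bases from 83 to 68 before the start. None of the promoters listed for Ifnar1, Ifnar2, Ifngr1, Ifngr2, Stat5b and Stat6 held this core. For Ifnar1, Stat5b and Stat6 the listed promoter does not begin at the start of the gene, so another window could differ. The GAS letters TTCNNNGAA, present in 7.02% of all promoters, were found once, in Ifnar2. The wider spacing that STAT6 favours, TTC and GAA with any 4 bases between them, is present in 5.85% and was found once each in Stat2 and Ifngr2, without overlap with the other motifs. A match describes the letters only.

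Socs1, the feedback inhibitor, was higher after repeat AAV-hSPB than on doxycycline. Its RNA was scarce, so its values carry a larger counting error than those of the other members. Socs1 levels were 4.77, 4.67, 4.50 and 4.69 log2 units after repeat AAV-hSPBTLR9i, and 5.59, 5.23, 5.06 and 5.11 after repeat AAV-hSPB. After a single dose Socs1 stood at 4.66, 4.63, 5.00 and 4.65 after AAV-hSPBTLR9i, and at 4.79, 5.13, 5.01 and 5.18 after AAV-hSPB. Off doxycycline Socs1 stood at 5.15, 5.21, 4.57 and 3.98, and on doxycycline at 4.68, 4.25, 4.74 and 4.31. All 4 repeat AAV-hSPB lungs lay above all 4 on-doxycycline lungs, and also above all 4 repeat AAV-hSPBTLR9i lungs. The off-doxycycline lungs spread widest, with a range that held all 4 on-doxycycline values.

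The mean of Socs1 was 5.25 ± 0.24 after repeat AAV-hSPB and 4.49 ± 0.25 on doxycycline (SD, n = 4 each), a difference of 0.75 log2 units or 1.68-fold (0.32 to 1.18, adjusted p = 0.0105). With the 2 lungs that stand apart both left out, the difference was 0.82 (adjusted p = 0.0207). After single AAV-hSPB, Socs1 stood 0.53 above the on-doxycycline group without passing the test (0.11 to 0.96, adjusted p = 0.374). After repeat AAV-hSPBTLR9i the difference from the on-doxycycline group was 0.16 (-0.27 to 0.59, adjusted p = 0.690). The recovered counts of Socs1 were 26 to 37 after repeat AAV-hSPBTLR9i, 27 to 38 after repeat AAV-hSPB and 21 to 24 on doxycycline. The background of the same lungs was 22.8 to 32.7, 12.3 to 26.0 and 15.8 to 22.2 counts in these 3 groups. The counts of the repeat groups thus overlapped, and their normalised levels were apart after division by the reference genes. The 3 lungs in which Socs1 was not above background were replicate 1 of repeat AAV-hSPBTLR9i, replicate 4 off doxycycline and replicate 2 on doxycycline.

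Ifnar1 and Ifnar2 code for the chains of the type I interferon receptor. Ifnar1 was higher after repeat AAV-hSPB than on doxycycline on the deposited scale, and Ifnar2 did not pass the test in any comparison. Ifnar1 levels were 10.23, 10.25, 10.09 and 10.12 log2 units after repeat AAV-hSPBTLR9i, and 10.36, 10.27, 10.46 and 10.34 after repeat AAV-hSPB. In the single-dose groups Ifnar1 stood at 10.16, 10.18, 10.25 and 10.17 after AAV-hSPBTLR9i, and at 10.20, 10.11, 10.12 and 10.18 after AAV-hSPB. Off doxycycline Ifnar1 stood at 9.91, 9.99, 9.99 and 10.21, and on doxycycline at 10.03, 9.92, 10.21 and 9.97. On the deposited scale the 4 repeat AAV-hSPB lungs lay above all other 20 lungs. The share of all genes with this group above every other group was not taken. The mean of these 4 lungs was 10.36 ± 0.08, against 10.03 ± 0.13 on doxycycline (SD, n = 4 each), a difference of 0.33 or 1.25-fold (0.16 to 0.49, adjusted p = 0.00545). With the 2 lungs that stand apart both left out the difference was 0.36 (adjusted p = 0.00926).

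Repeat AAV-hSPB exceeded single AAV-hSPB in Ifnar1 by 0.21 (0.04 to 0.37), with ranges apart, and did not pass the adjusted test (adjusted p = 0.129). The call of Ifnar1 against the on-doxycycline group depended on how the lungs were put on a common scale. It was also lost when these 2 groups were fitted alone (adjusted p = 0.105). Ifnar2 levels were 9.64, 9.87, 9.81 and 9.82 log2 units after repeat AAV-hSPBTLR9i, and 9.91, 9.39, 9.64 and 9.75 after repeat AAV-hSPB. With a single dose Ifnar2 stood at 9.73, 9.77, 9.85 and 9.88 after AAV-hSPBTLR9i, and at 9.67, 9.62, 9.74 and 9.66 after AAV-hSPB. Off doxycycline Ifnar2 stood at 9.54, 9.51, 9.73 and 9.83, and on doxycycline at 9.71, 9.58, 9.68 and 9.61. The ranges of the 6 groups overlapped except that the single AAV-hSPBTLR9i lungs all lay above the on-doxycycline lungs, with means of 9.81 and 9.64 and an adjusted p of 0.574. Replicate 2 of repeat AAV-hSPB, the lung low in endothelial markers, was the lowest of all 24. Against the on-doxycycline group, Ifnar2 differed by 0.14 after repeat AAV-hSPBTLR9i (-0.07 to 0.35) and by 0.03 after repeat AAV-hSPB (-0.18 to 0.24).

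**Figure D1:**
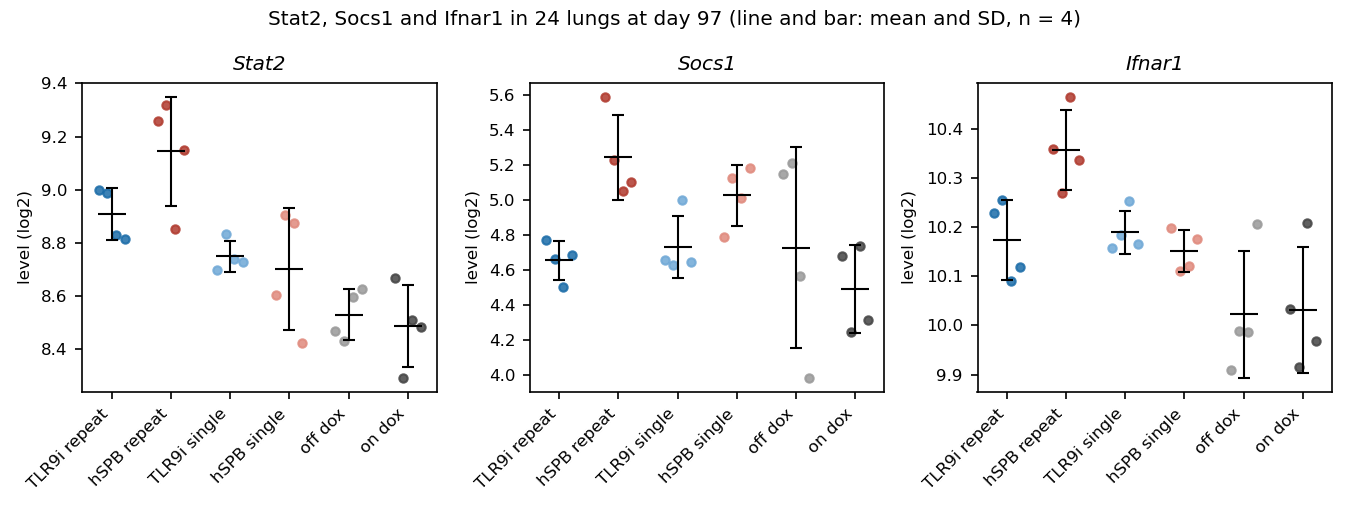
Levels of Stat2, Socs1 and Ifnar1 (log2 normalised counts, vertical axis) in the 6 groups of day 97, with a point per lung and the mean and SD as line and bar. The 4 repeat AAV-hSPB lungs lay above the 4 on-doxycycline lungs in all 3 genes, and the repeat AAV-hSPBTLR9i lungs did so in Stat2.

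In all, 3 of the 8 members rose and 0 fell after repeat AAV-hSPB against the on-doxycycline group, and 3 had ranges apart, all higher. Of the 773 genes of the panel, 23.3% rose in the same comparison, 26.3% passed in either direction, and 18.2% had all repeat lungs above all on-doxycycline lungs (22.8% had ranges apart in either direction). The median difference of the 8 members was 0.02 log2 units, against 0.15 for all genes. After repeat AAV-hSPBTLR9i, 1 of 8 members rose against the on-doxycycline group, where 11.0% of the genes rose and 11.5% passed in either direction. That member, Stat2, was also the only one with ranges apart, as were 18.1% of the genes in the higher direction and 22.5% in either. Between repeat and single AAV-hSPB, 1 of 8 members rose, where 6.73% of the genes did and 7.24% passed in either direction, and 1 member, Ifnar1, had ranges apart, where 10.3% of the genes did so in the higher direction and 12.5% in either. Over the 6 groups together, limma's F test passed for Stat2 (adjusted p = 0.00234) and Ifnar1 (0.0367) and not for Socs1 (0.0810), where 18.0% of the genes passed. In that test Ifnar1 lost its call, at adjusted p values of up to 0.102, without on-doxycycline replicate 1, 2 or 4, off-doxycycline replicate 1, 2 or 3, single AAV-hSPBTLR9i replicate 2, 3 or 4, repeat AAV-hSPB replicate 1, 3 or 4, or repeat AAV-hSPBTLR9i replicate 2 or 4. Socs1 passed it without off-doxycycline replicate 2 (adjusted p = 0.0421) or 4 (0.0128). The comparisons with the on-doxycycline group share its 4 lungs, so their values stand side by side and are not independent of each other.

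**Figure D2:**
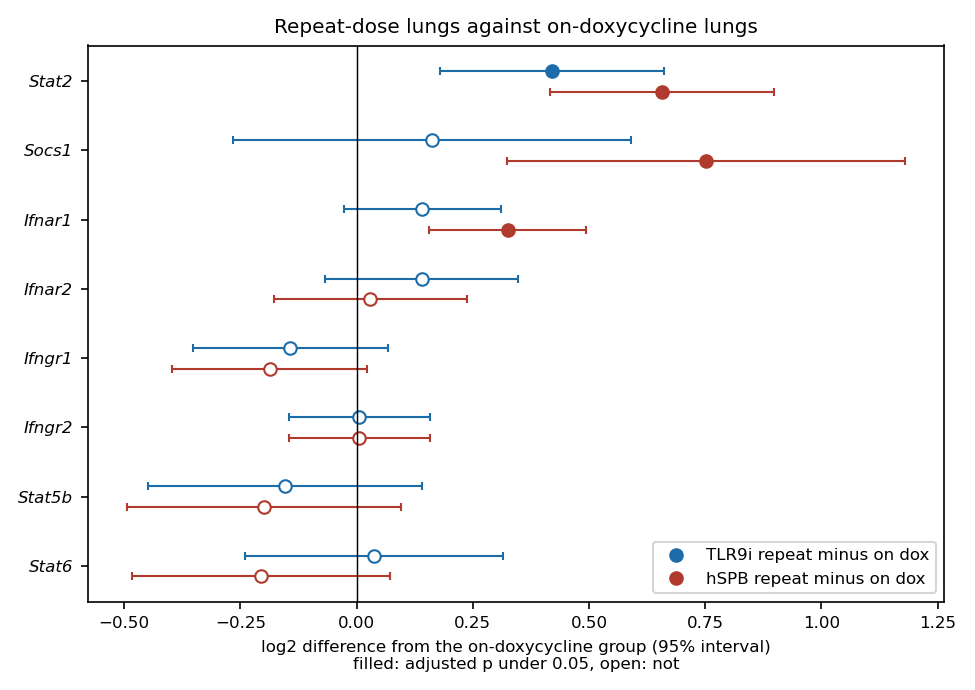
Log2 difference of each member from the on-doxycycline group after repeat AAV-hSPBTLR9i and after repeat AAV-hSPB, with 95% intervals, filled where the adjusted p was under 0.05. Stat2 passed after both vectors, at 0.42 and 0.66, and Socs1 and Ifnar1 passed after repeat AAV-hSPB, at 0.75 and 0.33.

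Ifngr1 and Ifngr2, the chains of the interferon gamma receptor, did not pass the test in any comparison on the deposited scale. Ifngr1 levels were 11.80, 11.81, 11.81 and 11.86 log2 units after repeat AAV-hSPBTLR9i, and 11.79, 11.87, 11.77 and 11.69 after repeat AAV-hSPB. After a single dose Ifngr1 stood at 12.09, 11.84, 11.87 and 11.79 after AAV-hSPBTLR9i, and at 11.93, 12.07, 12.06 and 11.83 after AAV-hSPB. Off doxycycline Ifngr1 stood at 11.97, 11.87, 11.78 and 11.85, and on doxycycline at 12.26, 12.05, 11.73 and 11.83. The repeat lungs lay in a narrow band, from 11.80 to 11.86 after AAV-hSPBTLR9i and from 11.69 to 11.87 after AAV-hSPB, and the on-doxycycline lungs spread from 11.73 to 12.26. Its highest on-doxycycline value was that of the lung high in liver markers. Against the on-doxycycline group, Ifngr1 stood at a difference of -0.14 after repeat AAV-hSPBTLR9i (-0.35 to 0.07, adjusted p = 0.406) and of -0.19 after repeat AAV-hSPB (-0.40 to 0.02, adjusted p = 0.177). Ifngr2 levels were 9.69, 9.70, 9.68 and 9.69 log2 units after repeat AAV-hSPBTLR9i, and 9.69, 9.65, 9.82 and 9.59 after repeat AAV-hSPB. In the single-dose groups Ifngr2 stood at 9.68, 9.84, 9.63 and 9.69 after AAV-hSPBTLR9i, and at 9.70, 9.75, 9.85 and 9.75 after AAV-hSPB. Off doxycycline Ifngr2 stood at 9.65, 9.64, 9.72 and 9.83, and on doxycycline at 9.72, 9.62, 9.75 and 9.64. All 24 lungs lay within 0.26 log2 units of each other. The group means ran from 9.68 on doxycycline to 9.76 after single AAV-hSPB, and neighbours in that order did not differ beyond their spread. Both repeat groups differed from the on-doxycycline group by 0.01 in Ifngr2 (-0.15 to 0.16 each).

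In RefSeq's gene table (GRCm38.p6), Ifnar2, Il10rb, Ifnar1 and Ifngr2 follow each other on chromosome 16 as neighbouring protein-coding genes. After repeat AAV-hSPB, in this order, their differences from the on-doxycycline group were 0.03, -0.21, 0.33 and 0.01 log2 units. Of these 4 neighbours 1, Ifnar1, passed, and Il10rb, a chain shared by the receptors of interleukin 10 and interferon lambda, had an adjusted p of 0.129.

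Stat5b and Stat6 did not pass in any comparison on the deposited scale. Stat5b levels were 8.50, 8.62, 8.78 and 8.66 log2 units after repeat AAV-hSPBTLR9i, and 8.78, 8.26, 8.70 and 8.63 after repeat AAV-hSPB. With a single dose Stat5b stood at 8.89, 8.54, 8.76 and 8.72 after AAV-hSPBTLR9i, and at 8.82, 8.64, 8.93 and 8.76 after AAV-hSPB. Off doxycycline Stat5b stood at 8.42, 8.16, 8.65 and 8.95, and on doxycycline at 8.89, 8.81, 8.61 and 8.87. Its lowest values were those of off-doxycycline replicate 2 and of repeat AAV-hSPB replicate 2, the lung low in endothelial markers. The largest difference from the on-doxycycline group was that of the off-doxycycline group, at -0.25 (-0.54 to 0.05, adjusted p = 0.447), and repeat AAV-hSPB followed at -0.20 (-0.49 to 0.10, adjusted p = 0.311). Stat6 levels were 7.53, 7.33, 7.47 and 7.32 log2 units after repeat AAV-hSPBTLR9i, and 7.28, 6.97, 7.11 and 7.33 after repeat AAV-hSPB. After a single dose Stat6 stood at 7.32, 7.23, 7.42 and 7.04 after AAV-hSPBTLR9i, and at 7.03, 7.45, 7.40 and 7.46 after AAV-hSPB. Off doxycycline Stat6 stood at 7.21, 7.00, 7.28 and 7.18, and on doxycycline at 7.72, 7.37, 7.04 and 7.38. The ranges overlapped between all pairs of groups except repeat AAV-hSPBTLR9i and off doxycycline, with the repeat lungs higher. That pair was not among the comparisons tested, and the share of all genes with ranges apart in it was not taken. The highest value of Stat6, 7.72, was that of the on-doxycycline lung high in liver markers. Repeat AAV-hSPB differed from the on-doxycycline group by -0.21 (-0.48 to 0.07, adjusted p = 0.262) and repeat AAV-hSPBTLR9i by 0.04 (-0.24 to 0.32, adjusted p = 0.904).

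**Figure D3:**
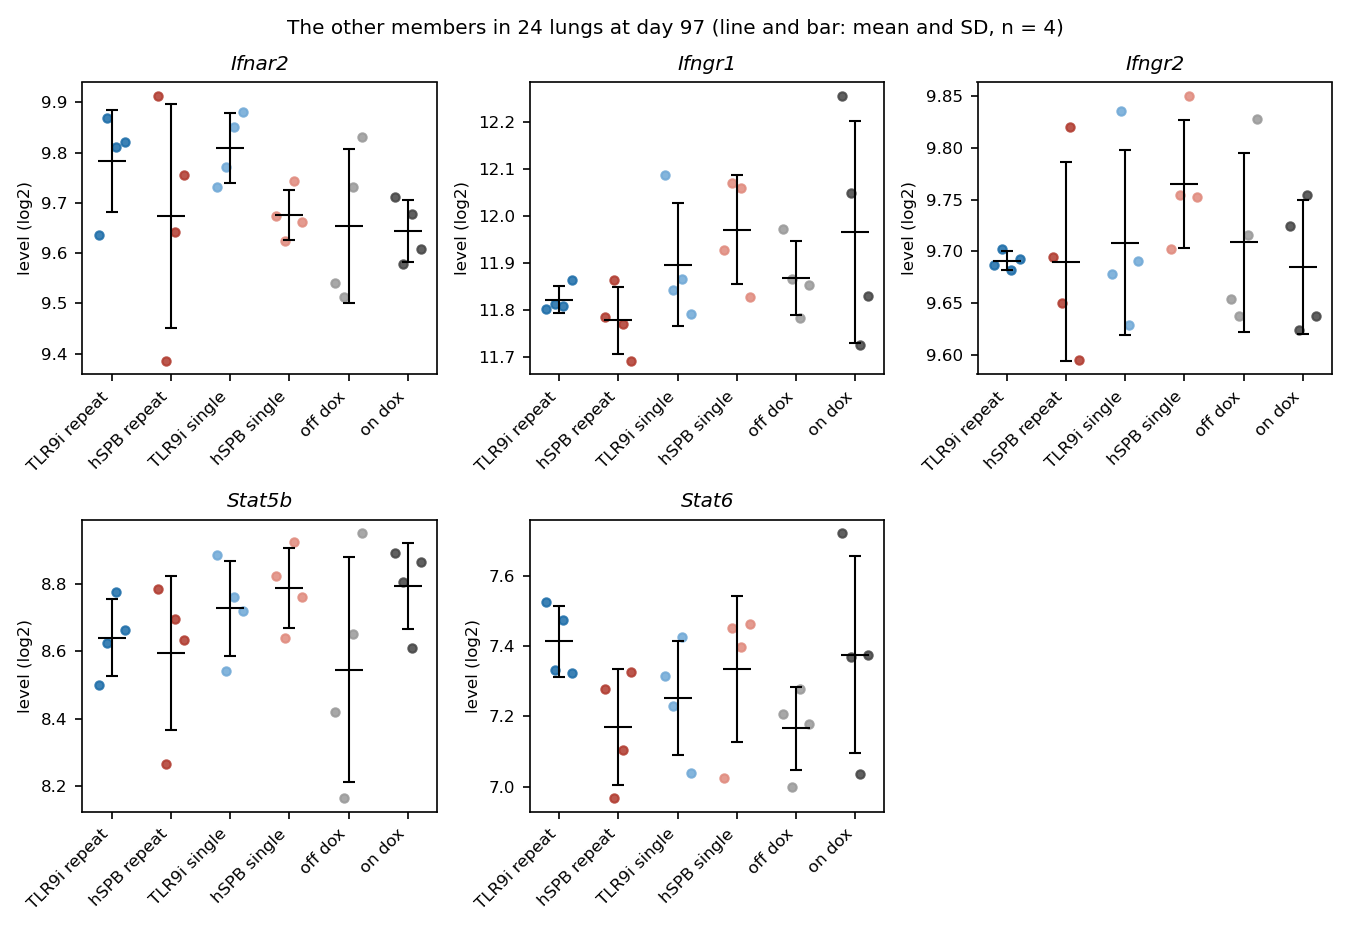
Levels of Ifnar2, Ifngr1, Ifngr2, Stat5b and Stat6 (log2 normalised counts, vertical axis, each gene on its own scale) in the 6 groups of day 97, with a point per lung and the mean and SD as line and bar. The repeat AAV-hSPB range overlapped the on-doxycycline range in all 5 genes.

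Several of these calls changed with the common scale on which the lungs were put. The deposited day 97 values were scaled to 6 of the 12 reference genes. On that scale the median of all genes was 0.15 log2 units higher after repeat AAV-hSPB than on doxycycline. Scaled to all 12 reference genes the median was 0.02, and scaled to the median gene of each lung it was -0.07. The genes called split into 180 higher and 23 lower on the deposited scale, 114 and 73 with all 12 reference genes, and 98 and 119 with the median gene. After repeat AAV-hSPBTLR9i against the on-doxycycline group these splits were 85 and 4, 61 and 18, and 53 and 37, and in repeat against single AAV-hSPB they were 52 and 4, 27 and 21, and 41 and 5. After repeat AAV-hSPB, Stat2 rose against the on-doxycycline group on all 3 scales, by 0.66, 0.53 (adjusted p = 0.00259) and 0.43 (adjusted p = 0.0164). Socs1 rose on all 3 as well, by 0.75, 0.62 (adjusted p = 0.0352) and 0.52 (adjusted p = 0.0436). The difference of Ifnar1 was 0.19 with all 12 reference genes (adjusted p = 0.0861) and 0.10 with the median gene (adjusted p = 0.501), and its call was lost on both. Ifngr1 fell on both, by 0.32 (adjusted p = 0.0214) and by 0.42 (adjusted p = 0.00567). Stat6 fell with the median gene only, by 0.44 (adjusted p = 0.0276). The differences of Ifnar2 and Ifngr2 turned from 0.03 and 0.01 to -0.10 and -0.13 with all 12 reference genes without passing the test. Stat2 after repeat AAV-hSPBTLR9i lost its call with all 12 reference genes (0.34, adjusted p = 0.0540) and with the median gene (0.22, adjusted p = 0.250), and Ifngr1 passed there with the median gene (-0.34, adjusted p = 0.0295). Stat2 in repeat against single AAV-hSPB lost its call on both too (0.33 with adjusted p = 0.0837, and 0.37 with adjusted p = 0.0865).

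**Figure D4:**
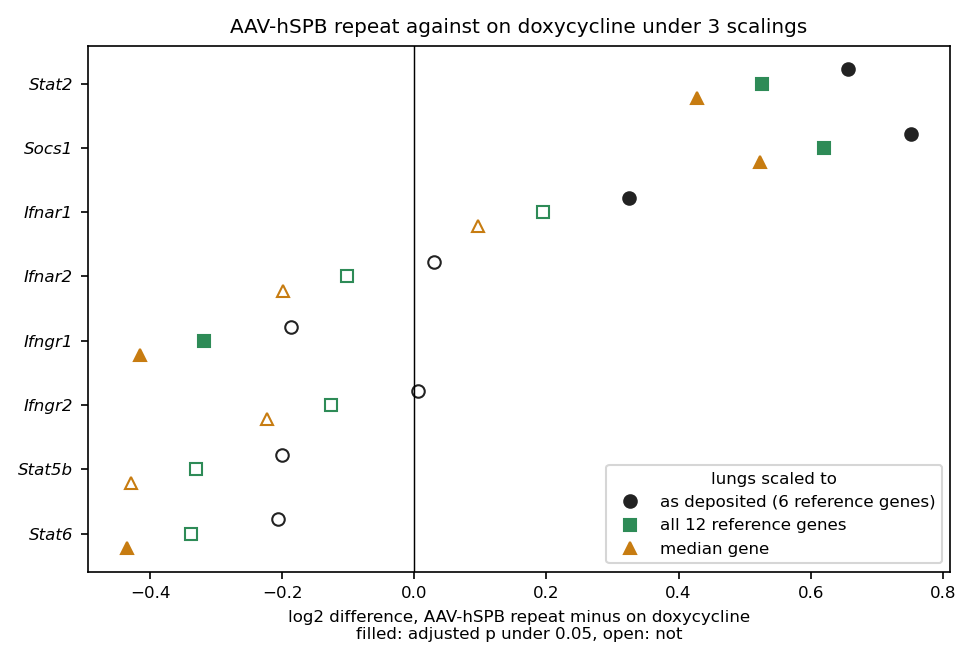
Log2 difference between repeat AAV-hSPB and on-doxycycline lungs for each member under 3 scalings, filled where the adjusted p was under 0.05. Stat2 and Socs1 were higher and passed on all 3, and Ifnar1 passed on the deposited scale alone.

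Between the vectors, 0 of 8 members passed. For repeat AAV-hSPBTLR9i against repeat AAV-hSPB, 0.0% of the 773 genes passed in limma, 6.6% had an unadjusted p under 0.05, and 2 of the 8 members did. These were Socs1, with means of 4.66 and 5.25 and a difference of -0.59 (-1.02 to -0.16, adjusted p = 0.723), and Ifnar1, with means of 10.17 and 10.36 and a difference of -0.18 (-0.35 to -0.02, adjusted p = 0.723). The ranges of both were apart, lower after AAV-hSPBTLR9i, where 1.81% of the genes had ranges apart in that direction and 2.33% in either. Total recovered counts differed as well, at 851635 to 1131011 after repeat AAV-hSPBTLR9i and 597788 to 856619 after repeat AAV-hSPB. The recovered counts of Socs1 overlapped, at 26 to 37 and 27 to 38. The part of total counts in these differences was not tested. Stat2 differed by -0.24 (-0.48 to 0.00, adjusted p = 0.723), with ranges that overlapped. For single AAV-hSPBTLR9i against single AAV-hSPB, 0 of 8 members passed and 0 had an unadjusted p under 0.05, where 0.0% of the genes passed and 1.03% had an unadjusted p under 0.05. The interaction of dose and vector also passed in 0 of 8 members and in 0.0% of the genes, with an unadjusted p under 0.05 in 0 members and 3.1% of the genes. Its estimate for Stat2 was -0.29 (-0.63 to 0.06) and for Ifnar1 -0.22 (-0.46 to 0.02), so a difference in the response to the repeat dose was not shown between the vectors. Repeat against single AAV-hSPBTLR9i passed in 0 of 8 members, 0 of them with an unadjusted p under 0.05, where 0.388% of the genes passed and 7.76% had such a p. There Stat2 differed by 0.16 (-0.08 to 0.40).

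The single-dose and off-doxycycline groups differed from the on-doxycycline group in 0 of 8 members each. After single AAV-hSPBTLR9i, where 0.259% of the genes passed and 10.7% had an unadjusted p under 0.05, Stat2 was the 1 member with such a p. It stood 0.26 above the on-doxycycline group (0.02 to 0.50, adjusted p = 0.426), and Stat2 and Ifnar2 had ranges apart, as had 8.54% of the genes in the higher direction and 8.93% in either. After single AAV-hSPB, where 0.0% of the genes passed and 10.6% had an unadjusted p under 0.05, Socs1 was the 1 member with such a p and the 1 with ranges apart, as had 4.92% of the genes in the higher direction and 5.69% in either. Off doxycycline, where 0.0% of the genes passed and 12.4% had an unadjusted p under 0.05, 0 members had such a p, and 0 had ranges apart, where 3.49% of the genes did. The off-doxycycline differences of the 8 members ran from -0.25 to 0.23. voom on the recovered counts also called 0 members in each of the comparisons in which limma called 0.

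Around these members the panel measured other genes of the pathway, on lists chosen with results of these data known. The 6 interferon probes measured were at or near background: 4 of them, Ifna4 among them, were above it in 0 of 24 lungs, the probe shared by several Ifna genes in 4 and Ifng, which codes for interferon gamma, in 5. No difference in interferon RNA is therefore read from them. Against the on-doxycycline group, 1 of the 6, Ifna4, at 2 to 17 recovered counts, passed after repeat AAV-hSPBTLR9i and 0 passed after repeat AAV-hSPB. Of 21 measured genes that interferons are known to induce, 9 rose after repeat AAV-hSPBTLR9i and 14 after repeat AAV-hSPB against the on-doxycycline group, with medians of 0.66 and 1.14 over the list and 0.11 and 0.15 over all genes. Of all genes, 11.0% and 23.3% rose in these comparisons. Oas3, an antiviral synthetase gene among the 14, was above background in 0 of 24 lungs. The chemokine Cxcl9 differed by 3.91 (adjusted p = 0.000648) and 4.21 (adjusted p = 0.000146) in these groups, and the peptide transporter gene Tap1 by 1.19 (adjusted p = 0.000475) and 1.64 (adjusted p = 5.45e-06). The antiviral gene Mx1 differed by 1.09 (adjusted p = 0.0193) and 1.53 (adjusted p = 0.000832). Ifit1, whose product binds viral RNA, did not pass in these groups, at -0.31 (adjusted p = 0.406) and -0.07 (adjusted p = 0.833). In repeat against single AAV-hSPB, 8 of the 21 rose, where 6.73% of all genes did. In repeat against single AAV-hSPBTLR9i 0 of the 21 rose, where 0.388% of all genes did. The interaction of dose and vector passed in 0 of the 21.

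Of 19 other cytokine receptor genes, 2 rose after repeat AAV-hSPBTLR9i (Il21r, 0.95, and Csf1r, 0.46) and 5 after repeat AAV-hSPB against the on-doxycycline group, with list medians of 0.23 and 0.33, against 0.11 and 0.15 over all genes. The counts lie near the panel's shares of 11.0% and 23.3% and are no result about the list. The 5 were Il12rb1, a chain of the interleukin 12 receptor that was above background in 4 of 24 lungs (1.50, adjusted p = 0.000664), Il21r (1.25, 0.000310), the macrophage growth factor receptor Csf1r (0.71, 0.000664), Il15ra (0.62, 0.00368) and Il2rg (0.41, 0.0225). Of 9 further genes of the signal, kinases and other STATs among them, 1 rose after repeat AAV-hSPBTLR9i and 5 after repeat AAV-hSPB, with medians of 0.27 and 0.38. Of 6 genes known to be induced through STAT6, 0 passed in either group (medians of 0.06 and 0.04), and of 4 induced through STAT5, 0 passed after repeat AAV-hSPBTLR9i and 2 after repeat AAV-hSPB, Foxp3 (1.41, adjusted p = 0.0202) and Bcl2 (0.52, adjusted p = 0.0241), with list medians of 0.41 and 0.59. Foxp3, which marks regulatory T cells, was above background in 19 of 24 lungs, and Bcl2 protects cells from death. Socs3 and Ptpn6, the measured negative regulators besides Socs1, did not pass, at 0.20 and 0.22 after repeat AAV-hSPB.

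Markers of B cells rose in the same comparisons, and those of T cells in part. After repeat AAV-hSPBTLR9i and repeat AAV-hSPB, 11.0% and 23.3% of the panel rose. Of the 5 measured B cell markers 5 rose after repeat AAV-hSPBTLR9i and 4 after repeat AAV-hSPB against the on-doxycycline group, and their summed normalised counts were 2092 to 2485 and 1374 to 3018, against 522 to 1611 on doxycycline. Of 6 measured T cell markers 1 and 3 rose in these groups, with sums of 1643 to 2318 and 1342 to 2593, against 1123 to 1601 on doxycycline. The T cell count after repeat AAV-hSPBTLR9i lies near the panel's share. Of 2 measured NK cell markers 0 rose in either group, with sums of 268 to 429 and 279 to 680, against 205 to 356 on doxycycline. Of 6 measured macrophage and monocyte markers, Csf1r among them, 1 and 2 rose, with sums of 3600 to 4295 and 3705 to 5072, against 2532 to 3808 on doxycycline. Their medians were 0.19 and 0.14, against 0.11 and 0.15 over all genes, and the counts lie near the panel's shares of 11.0% and 23.3%. Itgam and Marco of that list stood at -0.71 and -0.53 after repeat AAV-hSPB, without passing the test (adjusted p = 0.157 and 0.654). Of 2 measured dendritic cell markers 0 and 1 rose. Of 2 measured neutrophil markers, 2 endothelial markers and 1 epithelial marker, 0 passed in either direction. Their median differences in these groups were -0.91 and -0.87 for neutrophils, -0.20 and -0.44 for endothelium and -0.21 and -0.06 for epithelium. The T cell marker Cd8a, at 7 to 43 recovered counts, was above background in 14 of 24 lungs, and Marco and the dendritic cell marker Xcr1 in 23. The other markers of these lists were above it in all 24. The part of these cells in the levels of Stat2, Socs1 and Ifnar1 was not tested.

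Across the 24 day 97 lungs, the panel genes whose log2 levels ran most like each member were named by Pearson's r, as a description without a test. The lungs share their groups, so r was also taken over deviations from the group means. Like Stat2 ran H2-T23, Psmb9 and Xaf1, at r of 0.89, 0.88 and 0.88, and 0.60, 0.52 and 0.72 within groups. H2-T23 codes for a class I histocompatibility molecule and Psmb9 for an immunoproteasome subunit. Like Stat5b ran Gucy1a1, Mme and Gucy1b1, at 0.93, 0.90 and 0.89, and 0.92, 0.88 and 0.90 within groups. Gucy1a1 and Gucy1b1 code for the subunits of soluble guanylate cyclase, the nitric oxide receptor. Like Ifnar1 ran the Ccl21 probe, Mknk1 and H2-Ob, at 0.80, 0.80 and 0.77, and 0.72, 0.49 and 0.57 within groups. Ccl21 is a chemokine that draws lymphocytes. Like Ifnar2 ran Foxo1, Ccrl2 and Creb1, each at 0.78, and 0.85, 0.82 and 0.85 within groups. Like Ifngr1 ran Bnip3, Txnip and Tlr8, at 0.80, 0.73 and 0.69, and 0.87, 0.63 and 0.77 within groups. The remaining members had lower values of r. Like Socs1 ran Ctss, Fcgr1 and Tlr1, at 0.70, 0.68 and 0.68, and 0.68, 0.62 and 0.57 within groups. Like Stat6 ran Lilra5, Elane and H2-Q10, at 0.67, 0.64 and 0.61, and 0.72, 0.65 and 0.58 within groups. Elane was above background in 0 of 24 lungs and H2-Q10 in 13, so little is read from either. The highest H2-Q10 count was that of the on-doxycycline lung high in liver markers. Like Ifngr2 ran Tlr5, Mavs and Gzmm, at 0.59, 0.50 and 0.47, and 0.63, 0.63 and 0.41 within groups, and Gzmm was above background in 20 of 24 lungs. The median r of all pairs of panel genes was 0.06.

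Among the members themselves, Stat2 and Ifnar1 had an r of 0.68 over the 24 lungs and of 0.02 within groups, so their likeness lay between the groups. Ifnar2 and Stat5b had an r of 0.56 over all lungs and of 0.73 within groups, with the lung low in endothelial markers lowest in Ifnar2 and next to lowest in Stat5b. Spearman's rho, taken on ranks over all lungs, was lower for this pair, at 0.33. It was 0.67 for Stat2 and Ifnar1 and -0.42 for Stat5b and Socs1. Stat5b and Socs1 ran against each other, at -0.45 over all lungs and -0.58 within groups. The chains of the type I receptor, Ifnar1 and Ifnar2, had an r of 0.32, and those of the interferon gamma receptor, Ifngr1 and Ifngr2, of 0.09.

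At 3 h after a first dose, 0 of 8 members passed in any of the 3 comparisons. This table was normalised on its own, so its levels are not set against those of day 97. Stat2 stood at 9.92, 9.27 and 9.07 log2 units 3 h after AAV-hSPBTLR9i, at 9.74, 9.70 and 9.38 after AAV-hSPB and at 9.59, 9.30 and 9.31 after PBS. The groups overlapped, and the AAV-hSPBTLR9i lungs spread widest, since replicate 1 was the highest of all 9 and replicate 3 the lowest. Socs1 stood at 5.17, 4.80 and 5.50 log2 units 3 h after AAV-hSPBTLR9i, at 5.32, 5.23 and 5.34 after AAV-hSPB and at 5.43, 5.45 and 4.99 after PBS. Ifnar1 stood at 10.81, 10.88 and 10.83 log2 units 3 h after AAV-hSPBTLR9i, at 10.88, 10.80 and 10.87 after AAV-hSPB and at 10.89, 10.65 and 10.89 after PBS. Ifnar2 stood at 10.30, 10.36 and 10.35 log2 units 3 h after AAV-hSPBTLR9i, at 10.32, 10.29 and 10.48 after AAV-hSPB and at 10.29, 10.24 and 10.43 after PBS. The ranges of Socs1, Ifnar1 and Ifnar2 overlapped between all 3 groups. Ifngr1 stood at 13.11, 13.40 and 13.09 log2 units 3 h after AAV-hSPBTLR9i, at 13.26, 13.16 and 12.91 after AAV-hSPB and at 13.24, 12.90 and 13.13 after PBS. Ifngr2 stood at 10.14, 10.13 and 9.98 log2 units 3 h after AAV-hSPBTLR9i, at 9.74, 10.00 and 10.08 after AAV-hSPB and at 9.73, 10.03 and 10.03 after PBS. Neither chain of the interferon gamma receptor set the groups apart. Stat5b stood at 9.06, 9.39 and 9.32 log2 units 3 h after AAV-hSPBTLR9i, at 9.32, 9.17 and 9.17 after AAV-hSPB and at 9.47, 9.13 and 9.23 after PBS. Stat6 stood at 8.26, 8.17 and 8.11 log2 units 3 h after AAV-hSPBTLR9i, at 8.22, 7.99 and 8.01 after AAV-hSPB and at 8.38, 7.85 and 8.14 after PBS. The groups of both STAT genes overlapped as well.

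**Figure D5:**
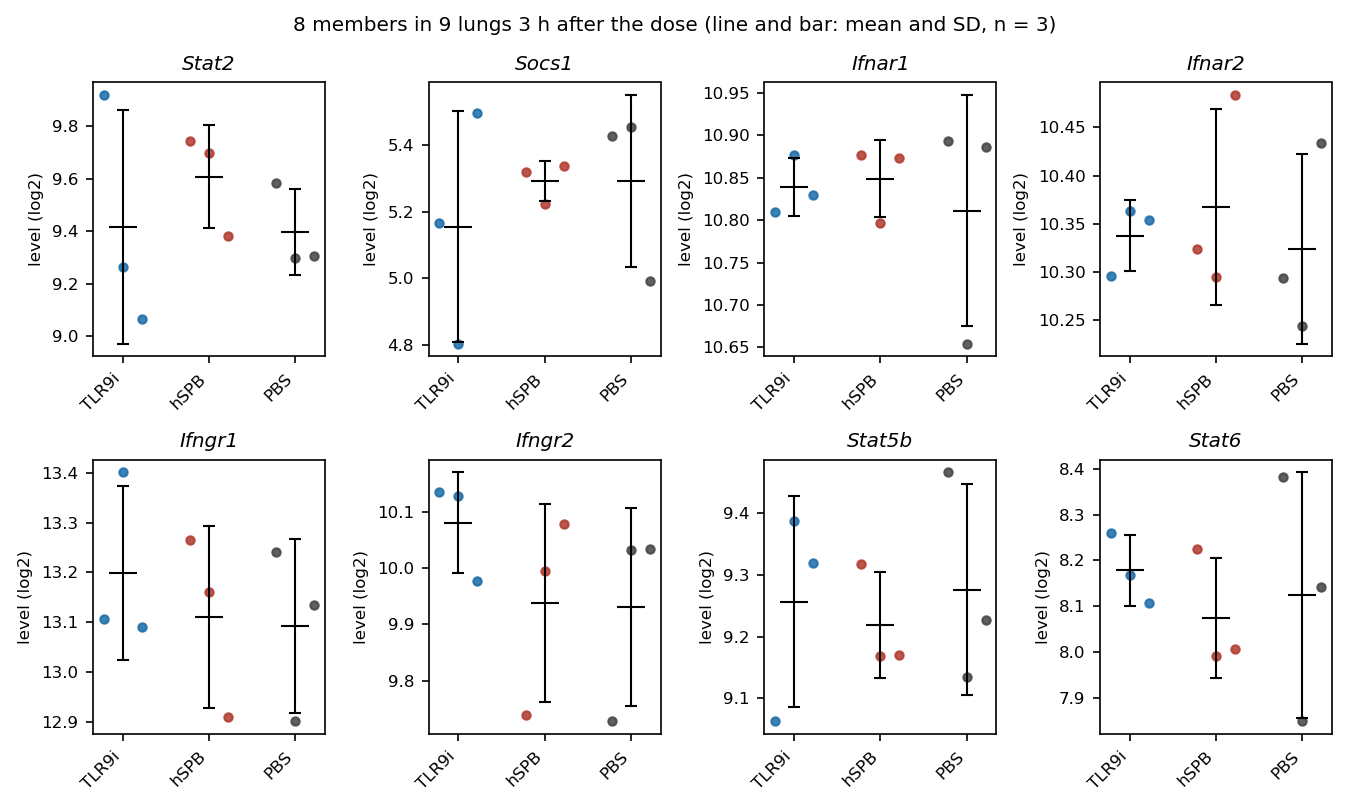
Levels of the 8 members (log2 normalised counts, vertical axis, each gene on its own scale) in 9 lungs 3 h after AAV-hSPBTLR9i, AAV-hSPB or PBS, with a point per lung and the mean and SD as line and bar (n = 3). The 3 groups overlapped in all 8 genes.

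For AAV-hSPBTLR9i against PBS, 0.0% of the 773 genes passed in limma and 1.94% had an unadjusted p under 0.05, 0 of them members, and the members' differences ran from -0.14 to 0.15. For AAV-hSPB against PBS, 0.0% passed and 2.2% had such a p, again with 0 members, and the differences ran from -0.06 in Stat5b to 0.21 in Stat2 (-0.30 to 0.72, adjusted p = 0.996). For AAV-hSPBTLR9i against AAV-hSPB, 0.0% passed and 1.55% had such a p, with 0 members, and Stat2 differed by -0.19 (-0.70 to 0.32). The F test over the 3 groups passed in 0 of 8 members and 0.0% of the genes. For Socs1, AAV-hSPB against PBS differed by 0.00 (-0.44 to 0.45). The ranges of 0 members were apart in the 3 comparisons, where 4.92%, 6.47% and 4.4% of the genes were. The Socs1 probe gave 26 to 45 recovered counts at 3 h.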

How the data were processed

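Right-lung RNA was counted on an nCounter panel of 773 genes and 12 reference genes, in 24 lungs at day 97 and 9 lungs at 3 h, grouped by the labels. The authors deposited a log2 normalised count per gene and lung, beside linear values that the log2 block equals in log2. The software and the background treatment are not given in the sources used here. Judged by the values themselves, scaling of the day 97 log2 table rested on 6 reference genes (Abcf1, Hprt, Mrps7, Nmt1, Oaz1 and Tbp). For the 3 h table the reference genes used were not checked. The deposited series matrix holds a linear signal scaled to all 12. Of 9 per-sample columns of that matrix, those of 3 h, none was used. Whole counts were recovered from the linear values (100% within 0.1 of a whole number), and the 8 dimmest control probes gave a background per day 97 lung (mean plus 2 SD).

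The deposited log2 values were tested with limma 3.58.1 (R 4.3.3), by lmFit, contrasts.fit and eBayes, in one model for each table that held every group. The residual degrees of freedom were 18 at day 97, against 6 in the 3 h table. Benjamini-Hochberg adjustment ran over all 773 genes within each of 15 tests, and 0.05 was the threshold. Intervals are 95% intervals from limma and cover the spread between samples, and errors after ± are SD. The steps were tested on simulated data. The members, the lists and the naming rule (the 8 members, pathway genes of the lists as examples, and for each member the 3 panel genes with the highest r) were chosen with earlier results of these data known. Alternatives were a model with sex, a prior variance both trended and robust, voom on recovered counts, a fit of the compared groups alone, dropping the lowest 25% of genes, the series matrix, scaling to all 12 reference genes or to the median gene, and leaving out each lung in turn. Leaving out on-doxycycline replicate 1 and repeat AAV-hSPB replicate 2 together was chosen after seeing the data. Promoter sequences are RefSeq's (GRCm38.p6). All 8 members matched that table by symbol. Some genes of the pathway are not reported here by name. Tables were made with pandas 2.3.3 and numpy 2.4.6 in Python 3.11.15, and figures with matplotlib 3.10.9.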

Additional observations from a re-analysis of the deposited data

Results flagged for a closer look

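In 3 of the 48 sets of 4 lungs formed by a member and a day 97 group, a lung stood far from the other 3. Chance alone flags about 1 in 20 such sets. Ifngr1 after repeat AAV-hSPBTLR9i had its highest lung at 11.86 log2 units, with the other 3 at 11.80 to 11.81. Stat6 after single AAV-hSPB had its lowest lung at 7.03, with the other 3 at 7.40 to 7.46. Socs1 after single AAV-hSPBTLR9i had its highest lung at 5.00, with the other 3 at 4.63 to 4.66.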

How the results depend on the processing

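No paired analysis was possible because the labels give no replicate numbers that groups share. No called result turned its direction under any alternative run. After repeat AAV-hSPB against the on-doxycycline group 3 members were called on the deposited scale and with the sex, prior variance and voom alternatives. The series matrix is itself scaled to all 12 reference genes, so these 2 alternatives are not separate checks. With all 12 reference genes and with the series matrix the count was 3 as well, with Ifngr1, lower, in the place of Ifnar1. It was 4 with the median gene, 2 with the compared groups alone (Stat2 and Socs1) and 2 after removal of the lowest 25% of genes, which took Socs1 out. On the deposited scale Stat2, Socs1 and Ifnar1 were called whichever lung was left out. For repeat AAV-hSPBTLR9i against the on-doxycycline group the count was 0 with all 12 reference genes and with the series matrix values, and 0 to 1 when each lung was left out in turn. For repeat against single AAV-hSPB it was 0 with the median gene, with all 12 reference genes, with the series matrix values, with the compared groups alone and without both lungs that stand apart, and 0 to 1 when each lung was left out in turn. Over the 6 groups 1 member passed with the median gene (Ifngr1), 1 with all 12 reference genes and 1 with the series matrix values (Stat2 in both), and 1 to 3 when each lung was left out in turn. The cause was not tested. The number of all genes called after repeat AAV-hSPB against the on-doxycycline group was 180 higher and 23 lower, and 84 in all with the compared groups alone. For repeat against single AAV-hSPB it was 56, and 12 with the compared groups alone. For repeat against single AAV-hSPBTLR9i it was 3, and 14 with the compared groups alone or 1 with all 12 reference genes or the series matrix. For single AAV-hSPBTLR9i against the on-doxycycline group it was 2, and 0 with the median gene, all 12 reference genes, the series matrix or the compared groups alone, 9 after removal of the lowest 25% of genes, 7 with sex and 7 without both lungs that stand apart. For single AAV-hSPB it was 0, and 3 with voom or 1 without both lungs, and off doxycycline 0, and 1 with the median gene. When each lung was left out in turn, the number of all genes called ran from 57 to 111 for repeat AAV-hSPBTLR9i (89 with all lungs), 0 to 11 for single AAV-hSPBTLR9i, 0 to 11 for single AAV-hSPB and 0 to 6 off doxycycline, each against the on-doxycycline group. It ran from 28 to 70 for repeat against single AAV-hSPB, and 0 to 3 for repeat against single AAV-hSPBTLR9i. It ran from 0 to 1 for the interaction, for AAV-hSPBTLR9i against PBS or AAV-hSPB at 3 h and over the 3 groups of 3 h, all 0 with all lungs. The 12-reference and series matrix alternatives were not run at 3 h, where their values were not used here. The low counts of Socs1 limit its precision.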
